A study of Mus musculus with 28 samples.

Results

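Genes best known from B cells were followed through RNA-seq libraries of sorted regulatory T cells (Tregs) from tumors and spleens of mice. The genes were chosen by name from a list of 34 B cell genes, and 29 of them were among the 13103 genes of the deposited table. Cd79a, Cd79b, Blnk, Cd180 and Ly86 were not analysed here. All mice carried the Foxp3-GFP reporter, in which the Treg gene Foxp3 marks cells with green fluorescent protein, and all had been given B16 melanoma cells in the skin 7 to 10 days earlier. No mice without tumors were among the groups. GFP-positive cells that stained for CD45, CD3 and CD4 were sorted by surface OX40, a costimulatory receptor encoded by Tnfrsf4. The 4 groups are spleen OX40minus and spleen OX40plus, with 3 mice each, and tumor OX40minus and tumor OX40plus, with 4 mice each. The 2 libraries of each mouse and gate differed slightly more than counting noise alone gives and far less than libraries of different mice, so they were averaged and counted as 1 sample, 14 in all.

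B cells read antigen through a surface immunoglobulin whose signal passes to the kinases Lyn, Blk, Syk and Btk and to the phospholipase Plcg2. Pax5 and Ebf1 set and hold the B cell program, and inhibitory receptors such as Cd22 and Cd72 damp the signal. Several of the genes are also used outside the lineage: Cxcr5 is carried by follicular T cells, Cd37 by many leukocytes, and Lyn, Syk, Btk and Plcg2 by myeloid cells. The spleen is rich in B cells.

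The 14 samples held 22.4 M to 29.7 M estimated counts (M, mega), and 3 counts corresponded to 0.104 to 0.13 CPM (counts scaled to the size of the library), taken here as the floor of detection. CPM are not divided by transcript length, so levels are compared between groups for a gene and not between genes. The sorted samples carried T cell transcripts, with Cd3e at 521 to 1103 CPM, Cd4 at 340 to 766 CPM and Foxp3 at 23.3 to 129.6 CPM over all samples. Markers of macrophages also moved with the gates: the summed level of the 9 macrophage genes in the table was 739 to 942 CPM in spleen OX40minus, 82.0 to 197 CPM in spleen OX40plus, 221 to 333 CPM in tumor OX40minus and 51.9 to 65.7 CPM in tumor OX40plus samples. In bulk samples such as these, fewer cells of a type and less RNA per cell cannot be told apart.

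The 29 genes fell into 3 groups by their tumor level. In 8 genes the mean stayed under 1 CPM in both tumor gates (low in tumor). In 13 genes it reached 5 CPM in at least 1 tumor gate (present in tumor), and the other 8 lay between. These bounds were set on tumor means, so the tumor level of a group describes the rule and is no result. Blk, at a mean of 0.955 CPM in tumor OX40minus, lay just inside the low group, and Pou2af1 at 1.05 CPM in tumor OX40plus and Bank1 at 1.12 CPM in tumor OX40minus lay just outside it. With the bound at 0.5 CPM the low group kept Pax5, Cr2, Tlr9 and Vpreb3. With the bound at 2 CPM it had 11 genes, since Ebf1, Bank1 and Pou2af1 joined.

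**Figure D1:**
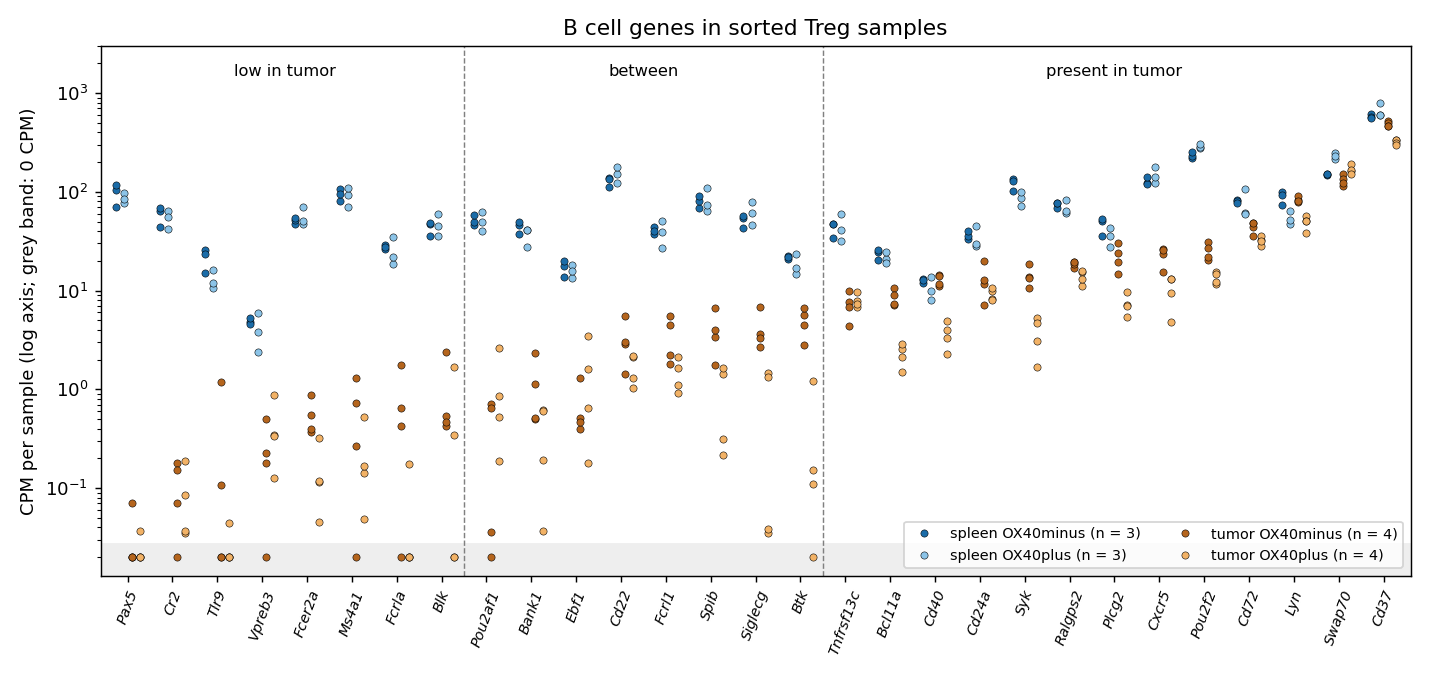
Level of each of the 29 genes in every sample, in CPM on a log axis, with 1 point per mouse and gate, genes grouped by tumor level and values of 0 drawn in the grey band. Genes low in tumor stood between 2.37 and 117 CPM in spleen samples and between 0 and 2.39 CPM in tumor samples, whereas the spleen and tumor samples of Lyn overlapped in both gates.

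The genes low in tumor were Ms4a1, Pax5, Fcrla, Blk, Cr2, Fcer2a, Tlr9 and Vpreb3. Ms4a1, which encodes the B cell surface protein CD20 (chr19:11249675-11266241, GRCm38), was at 81.4, 105.6 and 95.5 CPM in spleen OX40minus samples and at 70.5, 93.0 and 109 CPM in spleen OX40plus samples. In tumors it was at 0, 0.268, 0.725 and 1.31 CPM in OX40minus and at 0.141, 0.167, 0.519 and 0.049 CPM in OX40plus samples. Every spleen sample was thus above every tumor sample, and the gates of each tissue overlapped. Pax5, the factor that commits cells to the B lineage (chr4:44524757-44710487), was at 70.2, 104.8 and 117 CPM in spleen OX40minus and at 76.2, 98.2 and 84.7 CPM in spleen OX40plus samples. Of the 8 tumor samples, 6 had no Pax5 count, and the others had 0.0713 CPM (OX40minus, mouse 3) and 0.0371 CPM (OX40plus, mouse 2), both under the floor. The Pax5 tumor levels rest on 2 estimated counts over the 4 OX40minus samples and 1 over the 4 OX40plus samples. The spleen level was 5376 times the tumor level in OX40minus (95% counting interval 1488 to 44390) and 9117 times in OX40plus (1636 to 360100). Pax5 is in this group because its tumor level is low, so these ratios describe its counts and support nothing. The intervals cover counting error in the tumor samples only, not the spread between mice.

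Cr2, which encodes the complement receptors CD21 and CD35, was at 58.6 ± 12.9 CPM in spleen OX40minus (SD, n = 3) and 53.9 ± 10.8 CPM in spleen OX40plus (n = 3). It was at 0.1 ± 0.0807 and 0.0865 ± 0.0722 CPM in tumor OX40minus and OX40plus (n = 4 each), around the floor. Fcer2a, the low-affinity IgE receptor CD23, was at 51.2 ± 3.27 and 56.3 ± 12.2 CPM in the spleen gates and at 0.548 ± 0.228 and 0.15 ± 0.119 CPM in the tumor gates. Its lowest spleen sample, at 47.5 CPM, was far above its highest tumor sample, at 0.869 CPM. Blk, a kinase of the Src family used mainly by B cells, was at 43.8 ± 7.25 and 46.6 ± 12.3 CPM in spleen and at 0.955 ± 0.96 and 0.507 ± 0.803 CPM in tumor. A single tumor sample of each gate carried most of it, with 2.39 CPM in OX40minus mouse 4 and 1.69 CPM in OX40plus mouse 3. Fcrla, a cytoplasmic relative of the Fc receptors, was at 27.4 ± 1.31 and 25.3 ± 8.61 CPM in spleen, and in tumor OX40plus 3 of 4 samples had none.

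Tlr9, the receptor for unmethylated CpG DNA, and Vpreb3, a relative of the surrogate light chain, are the low genes whose promoters hold the octamer, the motif read by the factors Pou2f1 and Pou2f2 with their B cell coactivator Pou2af1. RefSeq promoters (GRCm38.p6, 250 bases before to 50 after the start) were given for 23 of the 29 genes. They are shown because 2 of the 6 low genes with a promoter carried the motif; the capitals mark the octamer ATGCAAAT, read on the opposite strand in Vpreb3. The promoter of Tlr9 lies at chr9:106222348-106222647 and that of Vpreb3 at chr10:75948050-75948349, both on the plus strand.
Tlr9: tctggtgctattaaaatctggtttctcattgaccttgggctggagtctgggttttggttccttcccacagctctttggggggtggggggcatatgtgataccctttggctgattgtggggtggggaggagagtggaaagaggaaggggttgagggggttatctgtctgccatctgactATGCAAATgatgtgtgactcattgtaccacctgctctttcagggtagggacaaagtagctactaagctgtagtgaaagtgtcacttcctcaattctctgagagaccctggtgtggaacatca
Vpreb3: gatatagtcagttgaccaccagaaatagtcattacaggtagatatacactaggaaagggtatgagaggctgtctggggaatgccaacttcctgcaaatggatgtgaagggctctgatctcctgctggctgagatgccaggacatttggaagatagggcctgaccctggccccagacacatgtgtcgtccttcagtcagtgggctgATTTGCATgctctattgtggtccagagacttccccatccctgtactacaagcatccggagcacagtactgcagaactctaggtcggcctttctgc
The octamer began 72 bases before the Tlr9 start (offset -72) and 45 before that of Vpreb3 (offset -45). It was thus in 2 of the 29 promoters of the 23 genes, against 1.74% of all 32851 promoters in the table. The EBF1 core CCCNNGGG, searched on both strands like the octamer, was in the promoters of Bank1, Cd22 and Spib (3 of 29 promoters, 13.7% of all promoters). The PU.1 core GAGGAA was in 12 of the 29 promoters of these 23 genes, among them those of Tlr9, Fcrla, Btk and Syk, and in 28.3% of all promoters. None of the 3 motifs contains another, and a match is only a match of letters. Tlr9 itself was at 21.5 ± 5.81 CPM in spleen OX40minus, 12.8 ± 2.86 CPM in spleen OX40plus and at 0 in 5 of 8 tumor samples. Vpreb3 was at 4.91 ± 0.366 and 4.05 ± 1.83 CPM in the spleen gates and at 0.227 ± 0.208 and 0.425 ± 0.323 CPM in the tumor gates.

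Summed over the 8 low genes, the spleen gates overlapped, whereas they did not overlap in the macrophage sum. For the 8 genes the level was 324, 433 and 439 CPM in spleen OX40minus samples of mice 1, 2 and 3, and 303, 393 and 433 CPM in the OX40plus samples of the same mice. Mouse 1 was lowest in 7 of 8 genes in OX40minus and in 8 of 8 in OX40plus, and mouse 3 was highest in 5 of 8 in each gate. Within each mouse the sum was lower in OX40plus. Tlr9 was lower in OX40plus in each mouse, at 14.9 and 10.5 CPM in mouse 1, 25.9 and 16.0 CPM in mouse 2 and 23.7 and 11.9 CPM in mouse 3. In tumors the sum was 1.15, 4.08, 2.35 and 6.23 CPM in OX40minus and 0.843, 1.24, 2.68 and 1.04 CPM in OX40plus samples. The tumor gates overlapped in this sum and did not overlap in the macrophage sum.

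**Figure D2:**
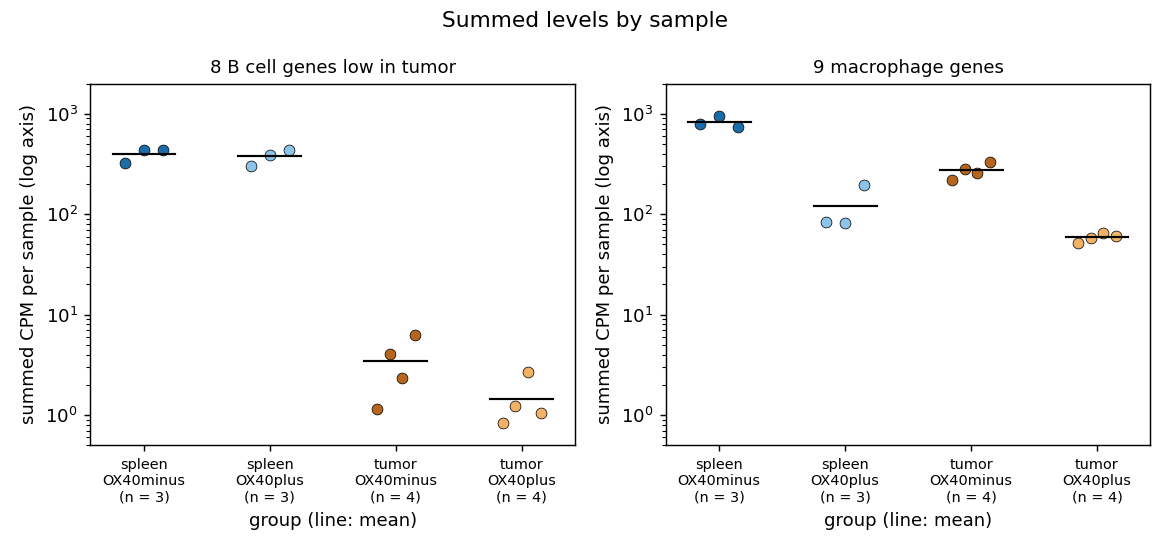
Summed CPM of the 8 B cell genes low in tumor (left) and of 9 macrophage genes (right) in each sample, on log axes, with 1 point per mouse and gate and the group mean as a line. The B cell sum was 303 to 439 CPM in all spleen samples and 0.843 to 6.23 CPM in all tumor samples, while the macrophage sum separated the gates within each tissue.

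The next comparison asked how OX40plus and OX40minus Tregs of the spleen differ in these genes. All 29 passed the filter on low values and entered a limma fit of 12509 genes over the 14 samples; calls needed an adjusted p (Benjamini-Hochberg) under 0.05, and log2 fold changes are given with their standard error (SE). In spleen OX40plus, 1 gene was higher (background 4.39% of genes tested) and 1 was lower (background 3.60%). With the spleen groups alone and mouse as a block, a fit added after the results were seen, 1 gene was higher and 3 were lower, since Tlr9 and Syk joined. Over all 12509 genes that fit called 643 higher and 633 lower. The median log2 fold change of the 29 was -0.12, beside 0.01 over all genes tested. Swap70, which links phosphoinositide signals to the actin skeleton (chr7:110221711-110283506), rose from 148, 153 and 151 CPM in OX40minus to 247, 217 and 233 CPM in OX40plus samples (log2 fold change 0.62 ± 0.11 SE, adjusted p = 0.00167). The gates did not overlap. Lack of overlap is given here and below as a description, since its share over all genes tested was not counted. Lyn, a Src family kinase that both starts and restrains B cell receptor signals (chr4:3678115-3813122), fell from 73.5, 100.6 and 92.6 CPM to 47.0, 51.9 and 64.0 CPM (-0.71 ± 0.15, adjusted p = 0.00779). The lowest OX40minus sample was above the highest OX40plus sample, but the call was lost without spleen OX40minus mouse 2 (-0.62, adjusted p = 0.0534) and without spleen OX40plus mouse 1 (-0.61, adjusted p = 0.0523). Lyn is also a gene of macrophages, and the macrophage sum moved the same way between these gates; its part in the Lyn difference was not tested.

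In the joint fit each gene has a single spread for both tissues, which was wide for the low genes (Ms4a1, SE 0.98). With the spleen groups fitted alone, the difference of Ms4a1 was -0.06 (95% interval -0.45 to 0.32) and that of Pax5 was -0.15 (-0.58 to 0.29), and neither was called. The interval of Blk was -0.39 to 0.54, that of Fcer2a -0.22 to 0.46, and that of Cr2 -0.58 to 0.35. These intervals leave the pairing by mouse aside. With mouse as a block they were -0.35 to 0.22 for Ms4a1, -0.48 to 0.18 for Pax5, -0.22 to 0.36 for Blk, -0.18 to 0.42 for Fcer2a and -0.37 to 0.14 for Cr2, and none was called. Tlr9 was at -0.73 with the spleen groups alone (-1.28 to -0.18, adjusted p = 0.0853) and was called lower with the block (-1.09 to -0.36, adjusted p = 0.0352). Pou2f2, the octamer factor Oct-2, was called with the spleen groups alone (0.31, interval 0.12 to 0.51, adjusted p = 0.0443) and not with the block (adjusted p = 0.105), at 234 ± 16.8 CPM in OX40minus and 290 ± 12.8 CPM in OX40plus. Syk was at 101.5, 135 and 130 CPM in OX40minus and at 71.8, 86.7 and 98.7 CPM in OX40plus samples, without overlap (-0.51). Syk missed the threshold in the fit of all groups (adjusted p = 0.533) and with the spleen groups alone (adjusted p = 0.0551), and was called lower with the block (adjusted p = 0.0291).

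The genes were also set against Ms4a1 in each of the 6 spleen samples, as the log2 ratio of CPM. The SD of that ratio was smallest for Fcrl1, an Fc receptor-like surface protein (0.10), for Blk (0.12), for Pou2af1 (0.13) and for Tnfrsf13c, the receptor for the survival factor BAFF (0.14). It was largest for Swap70 (0.46), Tlr9 (0.45), Lyn (0.37) and Vpreb3 (0.32). The ratio of Tlr9 to Ms4a1 had a mean of -2.16 in OX40minus and -2.83 in OX40plus samples, and that of Lyn of -0.09 and -0.73. Over the 7 other low genes the median SD was 0.18, over the 8 genes between it was 0.16, and over the 13 present genes it was 0.24. These are descriptions over samples that share mice, and no test was made of them.

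**Figure D3:**
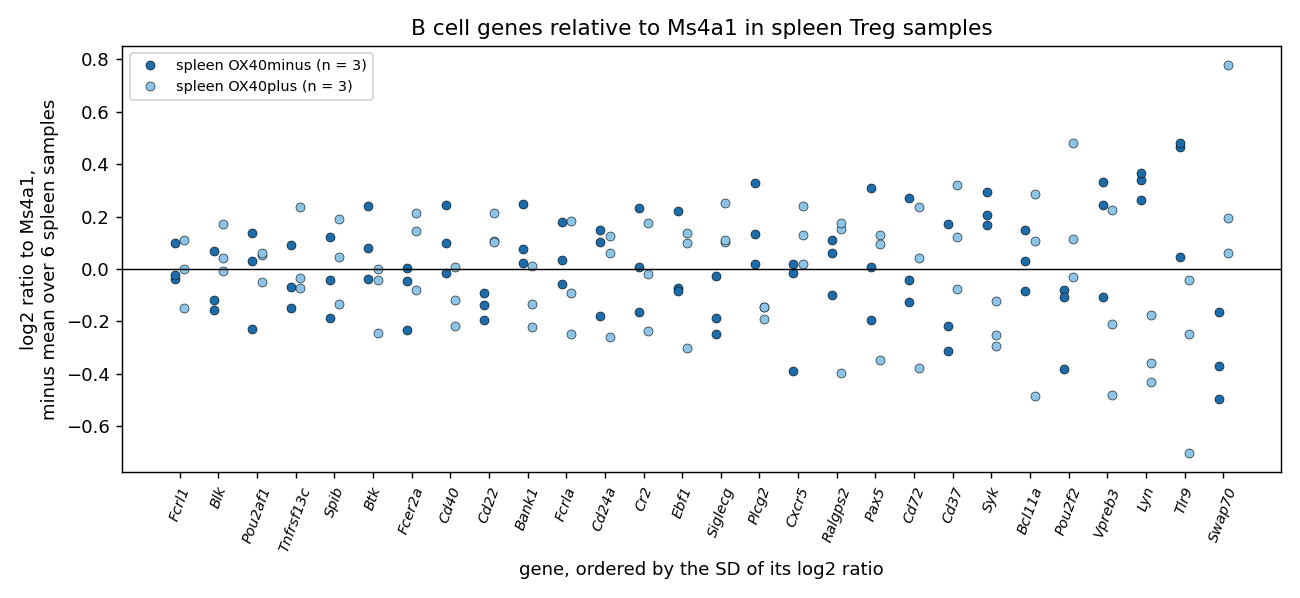
Log2 ratio of each gene to Ms4a1 in the 6 spleen samples, minus its mean, with genes ordered by the SD of the ratio and 1 point per mouse and gate. Fcrl1, Blk and Pou2af1 (SD 0.10 to 0.13) stayed near 0, whereas Lyn and Tlr9 lay higher in OX40minus and Swap70 higher in OX40plus.

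Between the tumor gates, 18 of the 29 genes were lower in OX40plus Tregs (background 20%) and Swap70 was higher (background 18.6%). The median log2 fold change was -0.88, beside -0.07 over all genes tested. By tumor level, 10 of 13 present genes, 6 of 8 between and 2 of 8 low genes were lower. The groups were set on these same tumor samples, and low genes have few counts there. Pax5, Cr2, Tlr9 and Vpreb3 passed the filter only through spleen samples, so few calls could arise among low genes. This split describes the rule and supports nothing. With the tumor groups fitted alone, 12 genes were lower and Swap70 higher (1996 and 2047 of all 12509 genes tested). The same counts came from limma-voom on the estimated counts (2461 lower and 2392 higher of all 12509). Markers of some other cells moved with these gates: 8 of 9 macrophage genes, 5 of 8 dendritic cell genes, 3 of 7 neutrophil genes, 6 of 8 MHC class II genes, 3 of 8 NK cell genes and 2 of 4 CD8 T cell genes were lower in OX40plus, and 1 neutrophil gene was higher. Of 6 melanoma genes and 4 erythroid genes, 0 were called. Of 10 genes that define T cells, Cd4 was lower and Il2ra higher. The summed level of dendritic cell genes was 277 to 364 CPM in tumor OX40minus and 174 to 204 CPM in OX40plus samples, that of neutrophil genes 197 to 278 and 39.8 to 73.3 CPM, and that of MHC class II genes 434 to 588 and 180 to 249 CPM. Most of the neutrophil sum in tumor OX40minus was Mmp9, at a mean of 213 CPM there and 26.6 CPM in OX40plus. S100a8 was at 0.603 and 0.0368 CPM, and S100a9 at 0.435 and 0.0279 CPM. Ltf, the higher neutrophil gene, was at 8.37 and 22.4 CPM. Mertk of the macrophage list and S100a9 and Ngp of the neutrophil list were at or under the floor in all tumor OX40plus samples. Mertk had a mean of 0.915 CPM in tumor OX40minus. The part of these cells in the differences below was not tested.

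Of the 6 kinases, adaptors and lipase, 5 were lower in tumor OX40plus, and Blk was not called (adjusted p = 0.0912). Btk, the kinase downstream of Syk that activates Plcg2 (chrX:134542336-134583570), was at 5.68, 6.71, 2.81 and 4.48 CPM in tumor OX40minus and at 0, 0.11, 1.21 and 0.151 CPM in OX40plus samples. The gates did not overlap (-4.83 ± 0.73, adjusted p = 9.13e-05). Of the 4 OX40plus samples, 2 were at or under the floor, so the size of this fold change rests partly on such values. Syk, the kinase recruited to phosphorylated receptor chains (chr13:52583173-52648792), fell from 10.6, 13.8, 13.5 and 18.7 CPM to 5.27, 3.06, 4.68 and 1.67 CPM (-2.05 ± 0.29, adjusted p = 4.65e-05). Plcg2, the phospholipase that releases calcium downstream of both kinases, fell from 22.1 ± 6.5 to 7.31 ± 1.83 CPM (SD, n = 4 each; -1.58 ± 0.23, adjusted p = 6.61e-05). Lyn fell from 79.7, 82.1, 91.7 and 81.5 CPM to 56.7, 50.5, 38.2 and 50.7 CPM (-0.78 ± 0.13, adjusted p = 2.54e-04). For Btk, Syk, Plcg2 and Lyn each OX40minus sample was above each OX40plus sample, and the calls held with the tumor groups alone. Bank1, a scaffold for Lyn and calcium channels, was at 1.12 ± 0.847 and 0.363 ± 0.295 CPM and overlapped between gates (-1.78 ± 0.65, adjusted p = 0.0397). The Bank1 call was lost with the tumor groups alone (adjusted p = 0.144), and its log2 fold change was -1.09 without tumor OX40plus mouse 2.

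All 6 regulatory surface receptors were lower in tumor OX40plus. Siglecg, an inhibitory receptor for sialic acids, was at 3.63, 3.30, 6.82 and 2.71 CPM in OX40minus and at 0.035, 1.48, 1.34 and 0.0386 CPM in OX40plus samples (-3.68 ± 0.86, adjusted p = 0.00297). The groups did not overlap, and 2 OX40plus samples were under the floor. Cd72, which binds the semaphorin CD100, was at 44.1 ± 6.18 and 31.9 ± 3.05 CPM (-0.46 ± 0.16, adjusted p = 0.0354). Cd72 overlaps Tesk1, Pou2f2 overlaps D930028M14Rik and Bcl11a overlaps 4930538E20Rik on the other strand, and whether counting used strand is not given in the sources used here. Fcrl1 was at 3.5 ± 1.78 and 1.45 ± 0.554 CPM (-1.19 ± 0.36, adjusted p = 0.015). Cd22, the inhibitory Siglec of B cells, was at 2.90, 5.51, 3.01 and 1.42 CPM in OX40minus and at 2.11, 1.03, 1.30 and 2.19 CPM in OX40plus samples, which overlapped. Its call was the weakest of the 18 (-0.86 ± 0.33, adjusted p = 0.0494), was lost once mouse was fitted as a block (adjusted p = 0.094), and its log2 fold change was -0.55 without tumor OX40minus mouse 2. The calls of Fcrla (-2.71) and Fcer2a (-1.82), which have few counts in tumors, were lost with the tumor groups alone (adjusted p = 0.0995 and 0.0543), and with 2 rather than 0.5 added to each count their log2 fold changes were -1.68 and -1.21. The call of Fcrl1 was lost in that fit too (adjusted p = 0.0879).

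Of the transcription factors, Bcl11a, Pou2f2 and Spib were lower and Pax5, Ebf1 and Pou2af1 were not called. Bcl11a, a zinc finger factor needed for early B cells and used by plasmacytoid dendritic cells, fell from 10.7, 8.96, 7.10 and 7.31 CPM to 2.55, 2.12, 2.85 and 1.51 CPM (-1.93 ± 0.23, adjusted p = 8.84e-06). Pou2f2 fell from 25.1 ± 4.69 to 13.6 ± 1.82 CPM (-0.88 ± 0.13, adjusted p = 6.31e-05). Spib, an Ets factor of B cells and plasmacytoid dendritic cells, was at 1.78, 6.69, 3.36 and 3.97 CPM in OX40minus and at 1.43, 0.219, 1.66 and 0.312 CPM in OX40plus samples (-2.46 ± 0.55, adjusted p = 0.00214). None of these 3 overlapped between the gates, which again was not counted over all genes tested. Pou2af1 had 0, 0.0361, 0.715 and 0.645 CPM in OX40minus and 0.866, 2.62, 0.524 and 0.188 CPM in OX40plus samples, which overlapped (adjusted p = 0.0964).

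Of the TNF receptors and the chemokine receptor, Cd40 and Cxcr5 were lower in tumor OX40plus and Tnfrsf13c was not called. Cd40, the receptor for T cell help on antigen-presenting cells (chr2:165055627-165072948), fell from 11.2, 11.6, 14.2 and 14.1 CPM to 2.27, 3.28, 4.90 and 3.98 CPM (-1.86 ± 0.24, adjusted p = 2.08e-05). Cxcr5, the receptor for the follicle chemokine CXCL13 (chr9:44511787-44561877), fell from 26.5, 23.4, 25.9 and 15.3 CPM to 13, 13, 4.76 and 9.40 CPM (-1.25 ± 0.26, adjusted p = 0.00139). Neither gene overlapped between the gates. Cxcr5 overlaps Bcl9l on the other strand. Tnfrsf13c was at 7.18 ± 2.27 and 7.97 ± 1.27 CPM (adjusted p = 0.551), and with the tumor groups alone its 95% interval was -0.44 to 0.84.

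Among the other membrane and signaling genes, Cd37, a tetraspanin of leukocytes, fell from 485 ± 26.4 to 319 ± 19.2 CPM without overlap (-0.60 ± 0.09, adjusted p = 1.18e-04); it overlaps Tead2 on the other strand. Ralgps2, an exchange factor for Ral GTPases, fell from 18.6 ± 1.19 to 13.8 ± 2.19 CPM (-0.44 ± 0.13, adjusted p = 0.0162; adjusted p = 0.0769 with the tumor groups alone). Swap70 rose from 151, 135, 114 and 122 CPM to 162, 190.5, 167 and 149.8 CPM (0.36 ± 0.09, adjusted p = 0.00664), and the lowest OX40plus sample was below the highest OX40minus sample. Swap70 was thus called higher in OX40plus in each tissue. Cd24a, the heat-stable antigen, was at 12.9 ± 5.27 and 9.2 ± 1.26 CPM and was not called (adjusted p = 0.214).

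**Figure D4:**
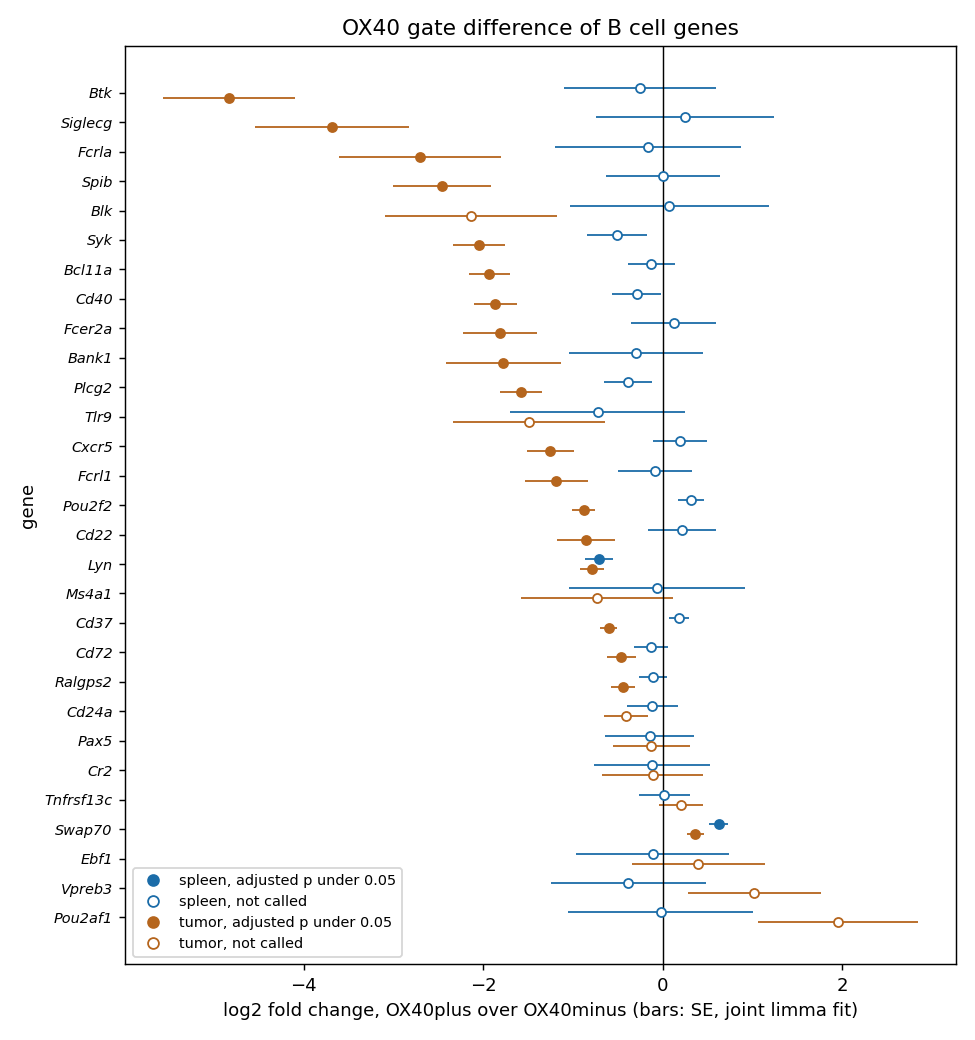
Log2 fold change of OX40plus over OX40minus for each of the 29 genes in spleen and in tumor, with SE bars from the joint limma fit; filled points were called at an adjusted p under 0.05. In tumor 18 genes lay below 0 as calls, from -4.83 for Btk to -0.44 for Ralgps2, while in spleen only Lyn (-0.71) and Swap70 (0.62) were called.

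Whether the gate difference itself changed with tissue was tested as an interaction. For 8 of the 29 genes it was lower in tumor than in spleen (background 6.38%) and for none higher (background 4.53%), with 12 at an unadjusted p under 0.05 in either direction. limma-voom gave 9 lower and 0 higher (838 and 532 of all 12509 genes tested). The 8 genes were Btk (-4.58 ± 1.12, adjusted p = 0.0161), Bcl11a (-1.81 ± 0.35, adjusted p = 0.00367), Cd40 (-1.57 ± 0.37, adjusted p = 0.013), Syk (-1.54 ± 0.44, adjusted p = 0.0352), Cxcr5 (-1.45 ± 0.40, adjusted p = 0.0304), Plcg2 (-1.19 ± 0.35, adjusted p = 0.0406), Pou2f2 (-1.19 ± 0.20, adjusted p = 0.00138) and Cd37 (-0.78 ± 0.14, adjusted p = 0.00285). Lyn, lower in OX40plus in each tissue, had an interaction of -0.07 ± 0.20 (adjusted p = 0.867). Fitting mouse as a block ended the Syk call (adjusted p = 0.0795). The macrophage sum was lower in OX40plus in both tissues, and 1 of 9 macrophage genes, Cd68, was called in the interaction, in the higher direction. In the lower direction, like the 8 genes, were 2 of 8 dendritic cell genes, Flt3 (-2.18, adjusted p = 0.0178) and Zbtb46 (-1.29, adjusted p = 0.0179), 1 of 7 neutrophil genes, Mmp9 (-2.02, adjusted p = 0.00223), 3 of 8 MHC class II genes (H2-DMb1, H2-Ob and Cd74) and 2 of 4 CD8 T cell genes (Cd8a and Eomes). Of 11 follicular T cell genes, 7 were lower, among them Tcf7, Sh2d1a and Cxcr4, and 1 of 8 NK cell genes, Klrc1, was higher. Of 10 genes that define T cells, Ctla4, Cd3e and Cd4 were lower and Il2ra higher. Of 17 further B cell genes, 4 were lower and 1 higher. Of 22 B cell receptor pathway genes, 3 were lower and 0 higher. Also lower were 2 of 7 germinal center genes and 1 of 6 plasma cell genes. Of 6 melanoma and 4 erythroid genes, 0 were called. The summed level of dendritic cell genes overlapped between the spleen gates (234 to 310 and 178 to 256 CPM). That sum did not overlap between the tumor gates. Itgax of that list did not overlap between the spleen gates, at 36.7 to 42.9 and 8.77 to 11.9 CPM. No gene of the list was called between them. In spleen OX40minus, Flt3 and Zbtb46 had means of 2.11 and 2.79 CPM and added little to the sum, while Ly6d had 52.25 CPM. Ly6d was at 51.55 CPM in spleen OX40plus, 2.60 CPM in tumor OX40minus and 0.419 CPM in tumor OX40plus. Between tissues in OX40minus it was the 1 dendritic cell gene of 8 called lower in tumor (-4.92, background 29.3%). There Flt3, Zbtb46, Cd209a and Siglech were called higher (background 29.7%). The part of these cells in the 8 differences was not tested.

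Between tissues nearly every gene was lower in tumor. In OX40plus Tregs 28 of 29 genes were lower (background 34.2%) and 0 higher (background 30.3%), with a median of -4.67 beside -0.13 over all genes tested. In OX40minus Tregs 26 were lower (background 29.3%) and 0 higher (background 29.7%), with a median of -3.66 beside -0.03. The same 28 and 26 genes were those at an unadjusted p under 0.05. limma-voom gave the same numbers (4356 and 3864 genes lower of all 12509 tested). Pax5, Cr2, Tlr9 and Vpreb3 passed the filter on low values only through their spleen samples and had to differ, so these counts describe the genes and support nothing. Lyn was called in neither gate (-0.15 ± 0.14 in OX40plus and -0.08 ± 0.14 in OX40minus), and its spleen and tumor samples overlapped. In OX40minus, Swap70 was at 151 ± 2.29 CPM in spleen and 131 ± 16.1 CPM in tumor (-0.22 ± 0.10, adjusted p = 0.0799). Cd40 was at 12.6 ± 0.537 and 12.8 ± 1.59 CPM (0.01 ± 0.26, adjusted p = 0.969) and fell in OX40plus from 10.6 ± 2.85 to 3.61 ± 1.11 CPM (-1.56 ± 0.26, adjusted p = 6.64e-05). Cd37 in OX40minus was the call nearest the threshold (-0.26 ± 0.10, adjusted p = 0.0373), and with the mouse number as a block it was lost (adjusted p = 0.0931). The tissue comparisons use the same samples as the gate comparisons, so their values stand side by side and are not counted as separate support.

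Genes that were present in tumor still differed in size between tissues. Pou2f2 was at 234 ± 16.8 CPM in spleen and 25.1 ± 4.69 CPM in tumor OX40minus Tregs (-3.24 ± 0.14, adjusted p = 1.80e-11). Syk was at 122 ± 18.1 and 14.2 ± 3.37 CPM in the same samples (-3.13 ± 0.31, adjusted p = 3.47e-07). Cxcr5 fell from 127 ± 11.1 to 22.8 ± 5.17 CPM (-2.51 ± 0.28, adjusted p = 1.44e-06). Cd72, by comparison, fell from 80.3 ± 2.4 to 44.1 ± 6.18 CPM (-0.88 ± 0.18, adjusted p = 4.64e-04). Among the genes between, Ebf1 was at 17.1 ± 3.08 CPM in spleen OX40minus and 0.668 ± 0.418 CPM in tumor OX40minus (-4.76 ± 0.80, adjusted p = 8.87e-05). Pou2af1 was at 51 ± 6.21 and 0.349 ± 0.384 CPM (-8.14 ± 0.96, adjusted p = 2.24e-06). Of its 4 tumor OX40minus samples, 2 were under the floor, at 0 and 0.0361 CPM. Its spleen mean was 148 times the pooled tumor level, less than that log2 fold change gives. The groups by tumor level were set on tumor means, so the tissue differences of their genes are descriptions and support nothing.

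Other genes of the same pathways came from lists beside the 29. Of 22 tested genes of the B cell receptor pathway, 7 were lower (background 20%) and 2 higher (background 18.6%) in tumor OX40plus against OX40minus. Their median log2 fold change was -0.18, beside -0.07 over all genes tested. Fcgr2b, the inhibitory IgG receptor also used by macrophages, fell from 26.3 ± 6.29 to 7.57 ± 4.58 CPM (-2.08 ± 0.43, adjusted p = 0.00128). Cd81, the tetraspanin of the B cell coreceptor, rose from 112 ± 5.87 to 191 ± 20.7 CPM (0.77 ± 0.11, adjusted p = 7.42e-05). In spleen, 2 of the 22 were higher (background 4.39%). Fcgr2b alone was lower (background 3.60%), from 58.7 ± 12.1 to 17.5 ± 3.48 CPM (adjusted p = 0.0417). Between tissues the list went both ways, with 7 higher (background 30.3%) and 10 lower (background 34.2%) in OX40plus. In OX40minus, 7 were higher (background 29.7%) and 9 lower (background 29.3%).

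Of 17 tested further B cell genes, 9 were lower (background 20%) and 1 higher (background 18.6%) in tumor OX40plus. In spleen 0 were called. Between tissues in OX40plus, 13 were lower (background 34.2%) and 4 higher (background 30.3%). In OX40minus, 10 were lower (background 29.3%) and 4 higher (background 29.7%). Irf8, a factor of B cells and dendritic cells, was among those higher in tumor, at 127 ± 5.37 CPM in spleen and 330.5 ± 10.8 CPM in tumor OX40minus (1.38 ± 0.11, adjusted p = 3.15e-08). Dtx1, a Notch target of marginal zone B cells that T cells also express, was at 586 ± 47.4 and 25.7 ± 9.02 CPM (-4.57 ± 0.39, adjusted p = 5.70e-08). Of 11 tested follicular T cell genes, 6 were lower (background 20%) and 1, Pdcd1, was higher (background 18.6%) in tumor OX40plus. In spleen 2 were higher (background 4.39%) and 0 lower (background 3.60%). Tcf7, Sh2d1a, Cxcr4 and Bcl6 were lower in tumor OX40plus together with Cxcr5, which this list shares. Of 7 tested germinal center genes, tumor OX40plus had 3 lower (background 20%) and 1 higher (background 18.6%), and 0 were called in spleen. Of 6 plasma cell genes, 0 were called in tumor, and Prdm1 and Irf4, which activated Tregs also express, were higher in spleen OX40plus (background 4.39%).

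The 10 genes outside the 29 whose level followed the mean of the 8 low genes most closely over the 14 samples were Klhl14 (Pearson r = 0.999), Epn1, Rapgef1, Prpf38b, Phf2, Ube2q1, H2-Q4, Rbm38, Kmt2b and Grk2 (r = 0.992 to 0.995). These correlations rest on the split between tissues, which all samples share, and are given with no test. Klhl14 was at 3.7 and 3.8 CPM in the spleen gates and at 0.0457 and 0 CPM in the tumor gates. The others kept tumor levels of at least 13.3 CPM, for example Grk2, at 944 and 323 CPM in spleen OX40minus and tumor OX40plus.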

How the data were processed

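RNA was sequenced from Tregs sorted from tumors and spleens; library preparation used the Illumina TruSeq RNA kit, per the labels. The authors deposited log2 CPM values of the form that limma's voom gives, with 0.5 added to each count, as read from the values. The submitters' processing notes name kallisto, limma, bcl2fastq 2.19 and the build mm10. How values were scaled and summed to genes, and whether strand was used, is not given in the sources. Some genes are not reported here. Inverting the deposited log2 values gave estimated counts, of which 43.3% to 49.0% per library were whole within 0.01 (0.926% to 1.34% with the library size raised by 10%), so no count model was used.

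The 28 libraries formed 14 pairs of the same mouse and gate. Over genes of 20 or more counts, the median chi-square was 0.496 to 0.573 within pairs and 1.40 to 12.7 over 18 pairs of different mice, so each pair was averaged. limma 3.58.1 (R 4.3.3) fitted 4 groups without a block, with empirical Bayes moderation and a trend. A gene was tested if it reached 0.382 CPM in 3 or more samples and 15 estimated counts in all, which kept 12509 genes. p-values measure the spread between mice of a group. The script was tested on simulated data.

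Titles give the same mouse number to both gates of a tissue, so the mouse pairs samples. Deviations from group means correlated at -0.162 to 0.113 for the same mouse in spleen (3 pairs) and at -0.108 to 0.0602 in tumor (4 pairs), and at -0.232 to 0.228 and -0.072 to 0.106 for different mice.

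The members and lists were chosen with earlier results of these data known. All members were named, and of each other list up to 4 called genes with the smallest adjusted p. Mertk, S100a9 and Ngp were named as markers at the floor after their values were seen. Itgax was also named after its values were seen. Ms4a1 served as the reference of ratios in place of Cd79a, a choice made after seeing the data. Gene positions are from GENCODE M21 (GRCm38). Intervals on counts cover counting error only. Alternatives tried were other scaling factors, 2 added to each count, no filter, limma-voom, the mouse as a block, only the groups compared, both together (added after the results were seen), and each sample left out.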

Additional observations from a re-analysis of the deposited data

Results flagged for a closer look

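In groups of 4 tumor samples, a single sample stood apart from the others in 4 of 58 groups examined, where chance gives about 1 in 20. Pax5 in tumor OX40minus mouse 3 was at -3.22 on the log2 CPM scale, with the others at -4.82 to -4.72, the values of a count of 0. Blk in tumor OX40minus mouse 4 was at 1.26, with the others at -1.13 to -0.80. In tumor OX40plus, mouse 3 stood apart for Fcrla (-2.33, others -4.85 to -4.72) and for Tlr9 (-3.74, others -4.85 to -4.72). In both genes the others were again at a count of 0, and Fcrla had 4 estimated counts over the group. Where the others share a count of 0, a sample with any count stands apart by that alone, so the rate of 1 in 20 does not apply. The Pax5 and Tlr9 levels of these samples are under the floor of 3 counts.

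The OX40 difference was lower in tumor than in spleen by the interaction test for Btk (-4.58), Bcl11a (-1.81), Cd40 (-1.57), Syk (-1.54), Cxcr5 (-1.45), Plcg2 (-1.19), Pou2f2 (-1.19) and Cd37 (-0.78).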

How the results depend on the processing

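Over 83 calls of a gene in a comparison, the alternatives gave 1756 values, of which 1662 kept direction and call, 94 kept the direction without the call and 0 reversed. Part of this was fixed in advance. Leaving out a sample of a group outside a comparison cannot change the fold change of that comparison. Between tissues, Pax5, Cr2, Tlr9 and Vpreb3 had to differ. The numbers kept are thus a description and no test. The lost calls belonged to 13 of the 83, and the cause was not tested. With 1 sample left out, the number of genes called ranged from 5 to 10 for the interaction (8 with all samples) and from 1 to 2 in spleen (2). Over all 12509 genes, those fits called 291 to 672 higher and 475 to 956 lower in the interaction. In spleen they called 346 to 644 higher and 274 to 547 lower. With the low bound at 0.5 CPM, 4 genes were low in tumor. In tumor, 13 genes were called with the tumor groups alone and with limma-voom (19 in the joint fit). Over all 12509 genes, the tumor groups alone gave 2047 higher and 1996 lower, and limma-voom 2392 and 2461. With the spleen groups alone, 971 genes of the whole table were higher and 879 lower, against 549 and 450. Scaling by library size alone moved the median of all genes between tissues in OX40plus from -0.13 to -0.23. The interaction uses all 4 groups, so a fit of only the groups compared was not run.

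In the paired analysis over all groups, with the mouse as a replicate block, 2 genes were called in spleen, 18 in tumor, 28 and 25 between tissues in OX40plus and OX40minus, and 8 in the interaction. Over all 12509 genes, 465 were higher and 393 lower in spleen, and 2115 and 2371 in tumor. Between tissues 3714 and 4202 were called in OX40plus and 3637 and 3616 in OX40minus. The interaction had 355 higher and 605 lower. Cd22 in tumor (adjusted p = 0.094), Cd37 between tissues in OX40minus (0.0931) and Syk in the interaction (0.0795) lost their call under the block, 1 gene that was not called without it gained one in the interaction, and no other call among the 29 genes changed. With 1 tissue alone and the replicate block, added after the results were seen, 4 genes were called in spleen (Tlr9 and Syk beside Lyn and Swap70) and 13 in tumor. Over all 12509 genes, those fits called 643 higher and 633 lower in spleen, and 1914 and 1905 in tumor.

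Calls lost without a single sample were as follows, with the highest adjusted p. In tumor they were Cd22 (11 of 14 samples, 0.165; 0.137 without OX40plus mouse 2), Bank1 (9 samples, 0.127; -1.09 and 0.12 without OX40plus mouse 2), Cd72 (6 tumor samples, 0.0963), Fcrla (6 tumor samples, 0.0942 without OX40minus mouse 4), Fcrl1 (without OX40minus mouse 3, 0.0547) and Ralgps2 (without OX40plus mouse 2, 0.0506). In the interaction they were Syk (10 samples, 0.0981), Plcg2 (10 samples, 0.12) and Cxcr5 (6 samples, 0.076). Between tissues in OX40minus they were Btk (the 3 spleen OX40minus samples and tumor OX40minus mouse 3, 0.0652) and Cd37 (5 samples, 0.126). Tumor levels of the low genes rest on few counts, which limits what can be said of their gate difference.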
